A study of Homo sapiens with 6 samples.

Results

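A set of 112 genes ran against ELK3 across 3 groups of libraries from MDA-MB-231, a human triple-negative breast cancer cell line. They were chosen from 24462 gene symbols by their level in counts per 1000000 of the library total (CPM), averaged over the 2 libraries of a group. Each had at least 5 CPM in control cells, a mean at least 1.5 times lower than control where ELK3 RNA was high, and a mean at least 1.5 times higher than control where ELK3 RNA was low. Of all symbols, 11470 reached the 5 CPM floor. The control cells carried a control retrovirus, and no plasmid transfection is recorded for them. The other cells carried a stable retroviral shRNA against ELK3 and were collected 48 h after transfection with 1 µg of plasmid. By the labels this was pLenti-cMyc-DDK (title ELK3KD-231 +CV, deposited column KD+E, here the vector-labelled libraries) or pLenti-cMyc-DDK-ELK3 (title ELK3KD-231 +ELK3, deposited column KD, here the ELK3-labelled libraries). Contrasts with control therefore cannot tell the labelled knockdown from transfection, nor from the differences in cell markers given below. Only 1 shRNA catalogue entry is recorded, and whether the 2 libraries of a group came from separate cultures is not stated, so their spread may be technical.

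ELK3 RNA went against the labels. It was 120.9 and 114.6 CPM in control, 774.5 and 713.3 CPM in the libraries labelled vector, and 21.5 and 23.3 CPM in the libraries labelled ELK3. The deposited column heads carry the opposite names. Read as knockdown with and without ELK3, KD+E and KD go with the ELK3 RNA, and the labels do not. Whether the labels were exchanged was not tested. Every direction below is read from the labels together with this ELK3 level. The groups did not overlap, and ELK3 differed from control by a log2 fold change of 2.53 ± 0.09 (SE) in the vector-labelled libraries and of -2.54 ± 0.11 in the ELK3-labelled ones.

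ELK3 belongs to the ternary complex factors, a branch of the ETS family of transcription factors. ETS proteins bind DNA around a GGAA core, and ternary complex factors also dock with serum response factor at CArG boxes in immediate early genes. ELK3 is known as a repressor that phosphorylation by ERK can turn into an activator. Many promoters of housekeeping genes hold ETS sites, which several family members can occupy.

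Library totals ran from 4884483 to 9131214 counts, and 3 counts, the limit that a count of 0 allows, stand for 0.329 to 0.614 CPM. Intervals and limits of this kind cover counting error only. Markers did not all follow the labelled line. A fixed list of 42 genes typical of MDA-MB-231 summed to 13862 and 13380 CPM in control, against 2298.5 to 2738 CPM in the 4 plasmid libraries. A list of 38 genes typical of HEK293 cells summed to 931 and 943 CPM in control, 1610 and 1658 CPM in the vector-labelled and 2927 and 2962 CPM in the ELK3-labelled libraries, with PAX2 and STMN2 at 0 in control. Hepatocyte markers summed to 13506 to 17362 CPM in every library. The part of these shifts in the results below was not tested.

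**Figure D1:**
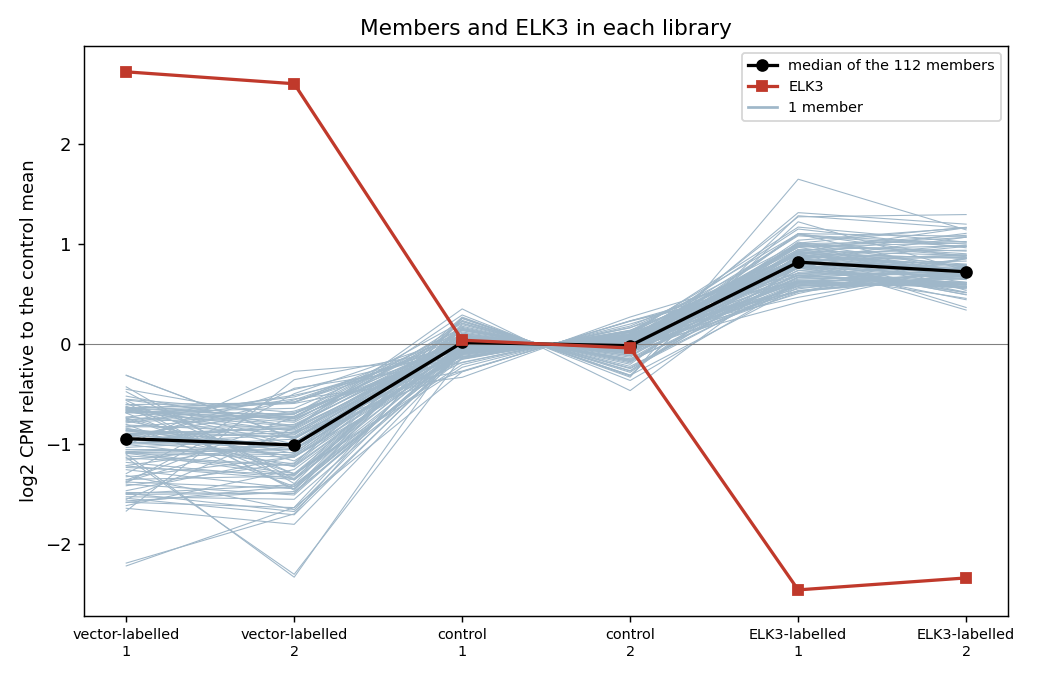
Level of each of the 112 members in each library on the vertical axis, as log2 CPM relative to the control mean, with the 6 libraries along the horizontal axis. Thin lines are members, the black line is their median and red squares are ELK3. Members lie below control in both vector-labelled libraries and above it in both ELK3-labelled ones, and ELK3 runs the other way.

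The members were lower where ELK3 was high and higher where it was low, as the rule required. Their median level was 12.3 CPM in the vector-labelled libraries, 23.5 CPM in control and 39.9 CPM in the ELK3-labelled libraries. The 3 groups did not overlap in 112 of 112 members, an order held by 8.37% of genes at the floor. In 40 members both libraries of each plasmid group lay past the 1.5-fold step from both control libraries (0.349% of genes at the floor). All 6 libraries entered the rule, so these counts and folds describe the choice and carry no test.

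By CPM per library total, the drop in the vector-labelled libraries was the larger step in 80 of the 112 members. It had a median of 0.96 on the log2 scale and reached 2-fold in 46. The rise in the ELK3-labelled libraries had a median of 0.75 and reached 2-fold in 16, and both steps did so in 7 members. These counts depend on scaling: with the TMM-scaled fold changes described below, the drop was the larger step in 106 members, reached 2-fold in 71 and had a median of -1.08, and the rise reached 2-fold in 4 and both steps in 3. From the vector-labelled to the ELK3-labelled libraries, members differed by a median of 3.39-fold, with a range of 2.28-fold to 6.21-fold. None had a step as large as that of ELK3. Replicates of a group differed by a median of 0.12 to 0.16 on the log2 scale.

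In an edgeR quasi-likelihood model over all 15386 genes tested, 112 of 112 members were called lower in the vector-labelled libraries (35.3% of genes tested) and 101 of 112 higher in the ELK3-labelled libraries (31.8%), both against control at an adjusted p under 0.05. Between the plasmid groups 112 of 112 were called higher in the ELK3-labelled libraries (30% of genes tested). These contrasts are those of the rule, so nothing is read from the counts. The 11 members not called in the ELK3-labelled libraries were ACSF3, C19orf54, DDX11L16, IL10RB-AS1, LOC100288778, PGGT1B, PKP2, RAD51D, SDHAF1, THAP6 and USE1. Membership depends on scaling: with CPM scaled by TMM factors the rule chose 87 genes, 56 of them among the 112, because TMM moved the median gene from 0.18 to 0.05 (vector-labelled) and from 0.18 to 0.02 (ELK3-labelled) on the log2 scale against control. Log2 fold changes with an SE below are TMM-scaled edgeR values against control, and CPM values are per library total.

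**Figure D2:**
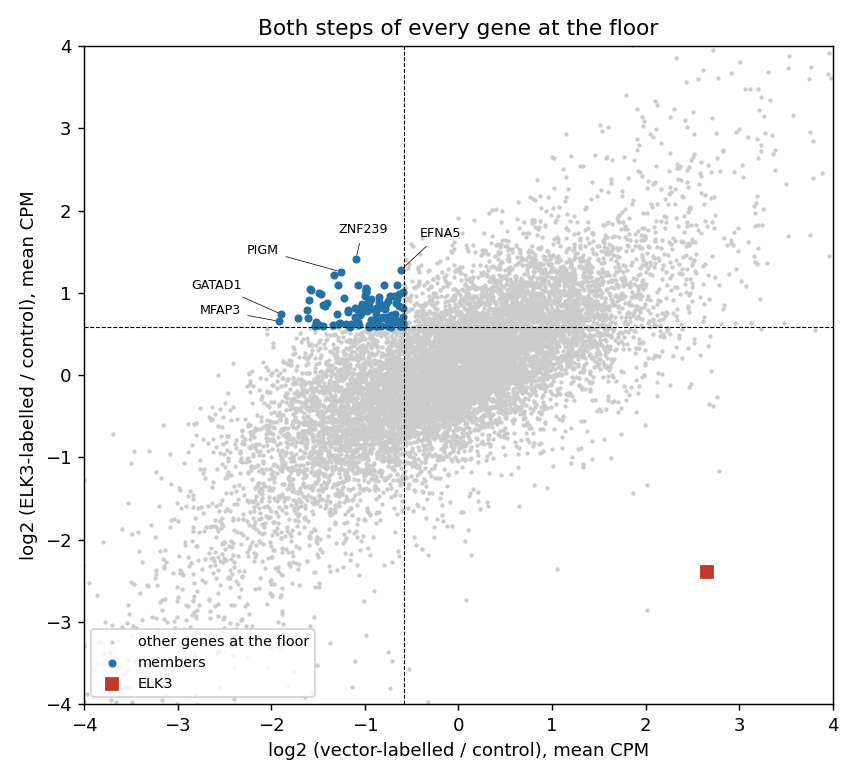
Log2 ratio of mean CPM to control in the vector-labelled libraries (horizontal axis) and in the ELK3-labelled libraries (vertical axis) for the genes at the floor, with 172 genes beyond the axes or at 0 not drawn. Dashed lines mark the 1.5-fold steps. The members fill the upper left corner, and ELK3 lies in the lower right.

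Promoter sequence, which the rule did not use, was compared next. RefSeq promoter windows (GRCh38.p14, 250 bases before to 50 after a listed start) were matched for 85 of the 112 members, 75.9%, and every listed window of a gene was searched on both strands. The ETS motif CCGGAAG was in 53 of these 85 members (62.4%), against 2144 of 9173 matched genes at the floor (23.4%) and 3321 of all 27303 listed genes (12.2%). Of the 55 genes graded in the opposite order, in step with ELK3, 39 were matched and 6 held it (15.4%). Because fewer than 80% of the members have a window, the check is void as a statement about all 112. The matched share was 79.97% for floor genes and 70.9% for genes in the opposite order, so their motif shares also cover matched genes only. If no unmatched member held the motif, the share of all members would be 47.3%.

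The share of members rose with the number of ETS motifs. Members made up 0.455% of the matched floor genes with no motif, 1.82% of the 1705 genes with 1 motif, 4.36% of the 367 genes with 2, and 8.33% of the 72 genes with 3 or more in a window. For genes in the opposite order the shares were 0.469%, 0.352%, 0% and 0%. CD2BP2, KNOP1, MRPS34, MTERF4, SLC25A46 and SYF2 were the members with 3 motifs in 1 window, the most in any member. The motif began at a median of 38 bases before the start in members and 47 in floor genes, so its place was alike in both.

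In all, 10 motifs were searched, and the other types lay nearer to the floor genes or below them in the matched members, apart from the E-box. The CArG box was in 1 of 85 members (1.18%) against 1.67% of matched floor genes. The GC box GGGCGG was in 72.9% against 76.8%, the CCAAT motif in 28.2% against 44.0%, and the E-box CACGTG in 17.6% against 12.8%. The AP-1 motif TGANTCA was in 1.18% against 6.56%, and the YY1 motif AAGATGGC in 2.35% against 6.98%. The cAMP response element TGACGTCA was in 2.35% against 3.96%, and the NRF1 motif in 1.18% against 2.88%. The longer ETS motif ACCGGAAGT, which contains CCGGAAG, was in 9.41% against 2.55%. Among all listed genes these shares ran from 1.20% for the longer ETS motif to 48.3% for the GC box. Median GC content of the windows was 66.0% in members and 64.7% in floor genes. A match is a run of letters and not a bound site.

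The sites of 4 of the members with 3 motifs, and of some members with a role in DNA repair, the proteasome and AMP-activated kinase, are shown because they carry the motif behind these shares. Each line gives bases of the RefSeq promoter on the gene's strand (GRCh38.p14), 5′ to 3′, with CCGGAAG or its reverse complement CTTCCGG in capitals.
MTERF4, chr2:241102459-241102488, minus strand: cgcgactccggcCTTCCGGctttctaaggg
MTERF4, chr2:241102323-241102352, minus strand: acggaccgggggCCGGAAGtgaaggacggg
MTERF4, chr2:241102293-241102322, minus strand: ggaggaccgctgCTTCCGGcgccgtaactg
SLC25A46, chr5:110738931-110738960, plus strand: ctttaatggttgCCGGAAGaggctataatc
SLC25A46, chr5:110738973-110739002, plus strand: gaCTTCCGGgtttccaacgtgaCTTCCGGt
MRPS34, chr16:1773188-1773217, minus strand: acctcttcctcgCTTCCGGccgcgaccgaa
MRPS34, chr16:1773141-1773170, minus strand: ccggcctCTTCCGGtgaCTTCCGGccggac
KNOP1, chr16:19718252-19718281, minus strand: ttcgCCGGAAGgccgcgacCCGGAAGaagc
KNOP1, chr16:19718197-19718226, minus strand: actcgaagtggaCTTCCGGgtcacggcgga
RAD50, chr5:132556810-132556839, plus strand: cccagcaaagatCCGGAAGtccgctgcccc
RAD50, chr5:132556874-132556903, plus strand: gccgtaccgcacCCGGAAGtcggagctgcg
BLM, chr15:90717141-90717170, plus strand: acccaactagctCCGGAAGcccgagatgta
BLM, chr15:90717331-90717360, plus strand: ggaataggcaagCTTCCGGcgggaagtgag
GTF2H2, chr5:71067713-71067742, minus strand: gcggcggaatgaCTTCCGGggcgcccctaa
PSMC2, chr7:103347608-103347637, plus strand: gagcccaatttaCTTCCGGtggggaaggga
PSMC2, chr7:103347640-103347669, plus strand: gggaagacaccaCCGGAAGcaaggaaggtg
PRKAG1, chr12:49018869-49018898, minus strand: ggcccgccaccgCCGGAAGggtgggttcct

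Among these sequences, those of SLC25A46, MRPS34 and KNOP1 hold 2 motifs within 30 bases. Windows of 150 bases just before the start could be printed whole for the splicing factor PRPF6 and the kinase MAP3K7, since no GENCODE exon overlaps them there.
PRPF6, chr20:63980982-63981131, plus strand: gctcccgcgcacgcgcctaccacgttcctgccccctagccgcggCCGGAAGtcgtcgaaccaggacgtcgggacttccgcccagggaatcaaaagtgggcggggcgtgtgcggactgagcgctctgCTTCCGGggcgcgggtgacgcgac
MAP3K7, chr6:90587073-90587222, minus strand: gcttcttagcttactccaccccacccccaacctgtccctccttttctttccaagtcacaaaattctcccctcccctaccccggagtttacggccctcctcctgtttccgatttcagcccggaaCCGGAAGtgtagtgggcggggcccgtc

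The PRPF6 motifs begin 106 and 24 bases before the start and face opposite strands. The single MAP3K7 motif begins 27 bases before the start.

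Genes outside the set showed how each step alone related to the motif. Among floor genes that were not members, the median log2 difference from control under high ELK3 RNA (vector-labelled) was 0.01 with no motif, -0.33 with 1, -0.72 with 2 and -0.96 with 3 or more. Under low ELK3 RNA (ELK3-labelled) the same medians were 0.01, 0.06, -0.00 and 0.02. Of non-members at least 1.5-fold lower in the vector-labelled libraries, 910 of 2888 held the motif (31.5%), against 335 of 2249 that were higher (14.9%). Of non-members higher in the ELK3-labelled libraries 20.8% held it, against 19.1% of those that were lower. So among these non-members the motif went with the drop in the vector-labelled libraries and hardly with the rise in the ELK3-labelled ones. Leaving out the members removes every floor gene that passed both steps, so these shares do not describe genes with both. Of the matched members, which passed both, 62.4% held the motif. The control cells also differ from both plasmid groups in transfection and in cell markers, and the part of ELK3 was not tested. Motif genes and other genes were also at different levels in control, with medians of 41.5 and 34.6 CPM. These are counts over genes, which are not replicates, and both steps share the control libraries.

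**Figure D3:**
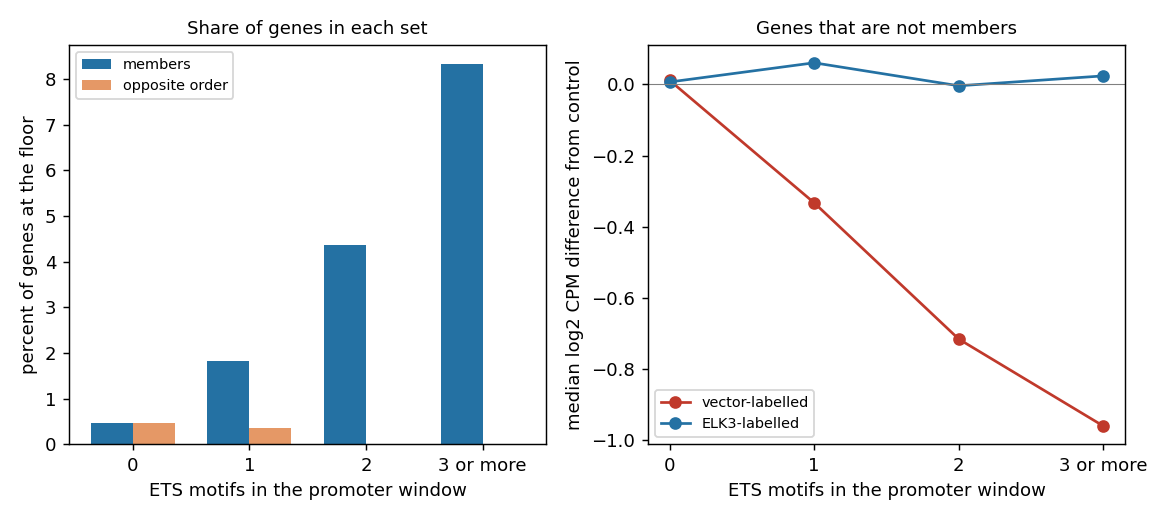
Left, percent of matched genes at the floor that are members (blue) or are graded in the opposite order (orange) by the number of ETS motifs in the promoter window. Right, median log2 CPM difference from control of genes that are not members, in the vector-labelled (red) and ELK3-labelled (blue) libraries. The member share climbs from 0.455% to 8.33%, and the red line falls from 0.01 to -0.96 while the blue line stays between -0.00 and 0.06.

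By CPM per library total, the member with the largest smaller step was PIGM, the mannosyltransferase that adds the first mannose to GPI anchors. It had 13.9 and 12.5 CPM in the vector-labelled libraries, 33.4 and 29.8 CPM in control, and 78.5 and 72.5 CPM in the ELK3-labelled libraries. Its TMM-scaled log2 fold changes were -1.38 ± 0.15 and 1.09 ± 0.12. NUDT12, a peroxisomal NADH pyrophosphatase, was at 4.05 and 5.12 CPM, then 11.4 and 10.9, then 24.0 and 23.5 CPM in the same order. KNOP1, a lysine-rich nucleolar protein, was at 44.1 and 34.8 CPM, then 111 and 108, then 215 and 221 CPM. KNOP1 carries 3 ETS motifs. AGGF1, an angiogenic factor, was at 29.1 and 28.9 CPM, then 54.6 and 60.3, then 112 and 120.2 CPM. PATZ1, a zinc finger regulator of transcription, was at 13.2 and 12.7 CPM, then 26.3 and 24.9, then 54.5 and 51.1 CPM. In all of these the replicates lay closer to each other than the groups did. STK36, a kinase of the Hedgehog pathway, was less even, at 9.45 and 5.94 CPM in the vector-labelled libraries, 14.7 and 15.7 in control and 32.2 and 29.9 in the ELK3-labelled ones.

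The members with the deepest drop and the largest rise follow. MFAP3, a microfibril-associated membrane protein with 2 ETS motifs, had the deepest drop, from 26.5 and 19.9 CPM in control to 5.10 and 7.17 CPM, a log2 fold change of -2.08 ± 0.21, and stood at 35.4 and 37.7 CPM in the ELK3-labelled libraries (0.50 ± 0.16). Without control replicate 2 its rise was 0.31, and without ELK3-labelled replicate 2 it was 0.43, and neither was called. GATAD1, a chromatin-binding GATA zinc finger protein, was close behind, at 6.15 and 9.21 CPM, then 31.8 and 25.3, then 51.7 and 43.7 CPM. ZNF239, a zinc finger protein, had the largest rise, at 3.75 and 3.28 CPM, then 9.04 and 5.97, then 23.5 and 16.5 CPM. Its TMM-scaled fold changes were -1.21 ± 0.31 and 1.23 ± 0.23, equal within their errors, and by them its smaller step exceeded that of PIGM. EFNA5, the ligand ephrin-A5, was at 38.1 and 39.7 CPM, then 60.7 and 58.1, then 143 and 146 CPM. The EFNA5 rise of 1.12 ± 0.10 stood beside a drop of -0.75 ± 0.11.

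**Figure D4:**
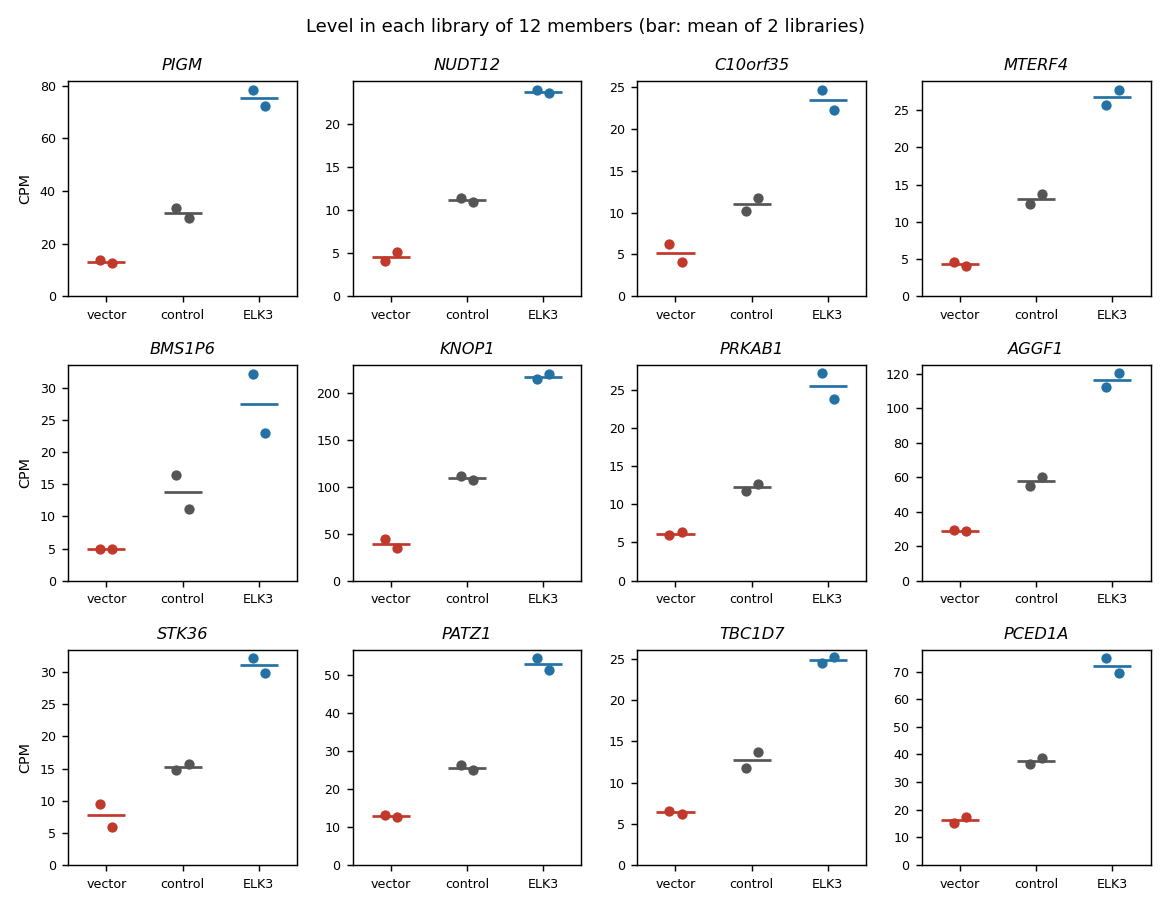
CPM in each library (points, from 0) and group mean (bars) for the 12 members of at least 10 CPM in control with the largest smaller step, with vector-labelled, control and ELK3-labelled libraries from left to right. In each panel the 3 groups stand apart in that order, as in PIGM with 12.5 to 13.9, 29.8 to 33.4 and 72.5 to 78.5 CPM.

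Grouped by known role, a grouping made after the members were seen, 11 members act in DNA repair and genome upkeep. RAD50, of the MRE11-RAD50-NBS1 complex that senses double-strand breaks, was at 105 and 98.1 CPM, then 181 and 214, then 285 and 319 CPM (-1.09 ± 0.10 and 0.46 ± 0.09). BLM, the helicase mutated in Bloom syndrome, was at 13.9 and 12.7 CPM, then 32.6 and 32.2, then 50.5 and 49.5 CPM. SMUG1, a uracil-DNA glycosylase, was at 7.35 and 3.28 CPM, then 14.7 and 17.5, then 34.6 and 26.2 CPM. Its vector-labelled libraries differed from each other more than those of RAD50 or BLM. The others were the TFIIH subunit GTF2H2, the AAA ATPase TRIP13, the checkpoint clamp subunit HUS1, RAD51D, NABP2, ASCC2, ANKRD32 and GTF2H2C_2. All 8 with a matched promoter held an ETS motif. Motif shares in floor genes of the same role outside the set were not counted, here or for the groups below. A high share may therefore belong to the role and not to membership. On the wider DNA repair list, 31 of 75 genes tested were called lower and 26 higher in the vector-labelled libraries, where 35.3% and 37% of all genes tested were. In the ELK3-labelled libraries 23 were lower and 26 higher, beside 30.8% and 31.8% of all genes. Its median log2 fold changes were -0.13 and -0.00, against 0.05 and 0.02 over all genes tested.

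RNA processing and ribosome synthesis held 8 members, and all 7 with a matched promoter carried the motif. PRPF6, a scaffold of the U5 part of the spliceosome, was at 59.8 and 58.8 CPM, then 160.4 and 184, then 248 and 272 CPM (-1.67 ± 0.10 and 0.44 ± 0.09). CD2BP2, which binds the same U5 particle, was at 24.7 and 23.5 CPM, then 57.0 and 59.3, then 91.9 and 88.7 CPM. TTF1, which ends transcription of ribosomal RNA by RNA polymerase I, was at 53.1 and 51.8 CPM, then 107 and 119, then 196 and 201 CPM. The drop was the larger step in each of these. The splicing factors PPIH and SYF2, the RNA exonuclease ISG20L2, the cap methyltransferase TGS1 and the tRNA methyltransferase TRMT13 completed the group.

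Mitochondrial proteins made up 12 members, and 7 of the 12 carried the motif. MTERF4, which works in assembly of the mitochondrial ribosome, had the strongest grading among them, at 4.65 and 4.09 CPM, then 12.4 and 13.7, then 25.7 and 27.7 CPM (-1.69 ± 0.24 and 0.88 ± 0.18). SLC25A46, an outer membrane protein of mitochondrial fission and cristae upkeep, was at 18.9 and 19 CPM, then 51.9 and 55.1, then 95 and 67.7 CPM (-1.63 ± 0.15 and 0.43 ± 0.12). MRPS34, a subunit of the small mitochondrial ribosome, was at 92.1 and 97.2 CPM, then 194 and 171, then 331 and 304 CPM. These 3 genes have 3 motifs each. The rise of SLC25A46 rests on ELK3-labelled replicate 1: without it the log2 fold change was 0.20 and was not called (edgeR adjusted p = 0.22). The rest were the import factors TIMM8A and TIMM10B, the respiratory assembly factors TIMMDC1, NDUFAF7, SDHAF1 and TMEM177, the threonyl-tRNA synthetase TARS2, the malonyl-CoA synthetase ACSF3 and the methyltransferase FAM173A.

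The title of the series names mitochondrial dynamics, and SLC25A46 was the only member on the 21-gene fission list. On that list 16 genes were lower and 3 higher in the vector-labelled libraries, and 6 were lower and 9 higher in the ELK3-labelled ones, with median log2 fold changes of -0.65 and 0.20. Of all genes tested, 35.3% were lower and 37% higher than control under high ELK3 RNA. Under low ELK3 RNA 30.8% were lower and 31.8% higher, so the ELK3-labelled counts of the fission list lie near the background. The 16 genes lower in the vector-labelled libraries lie above it. Between the plasmid groups 16 of the 21 were higher and 4 lower in the ELK3-labelled libraries, with a median of 0.78. Of all genes tested, 30% were higher in that comparison. Genes just outside the thresholds also act in fission: MIEF1, a receptor for DRP1, missed the drop at 1.497-fold, and MUL1, a mitochondrial ubiquitin ligase, missed the rise at 1.497-fold. The fusion and cristae list, of 22 genes, held 0 members. On the list of mitochondrial DNA upkeep, 16 of 25 genes were lower and 4 higher in the vector-labelled libraries, and 13 were lower and 5 higher in the ELK3-labelled ones, which is not the order of the members.

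Protein turnover and folding held 8 members, with the motif in 6 of 7 matched. PSMC2, an ATPase of the proteasome cap, was at 50.1 and 51.2 CPM, then 99.5 and 113, then 170.5 and 163 CPM. PSMG3, which helps to build the proteasome core, was at 50.8 and 56.9 CPM, then 149.96 and 154, then 219 and 244 CPM. PSMC2 was the only proteasome subunit of the 42-gene proteasome list among the members. On that list 27 genes were lower and 12 higher in the vector-labelled libraries (35.3% and 37% of all genes tested), and 19 were lower and 7 higher in the ELK3-labelled ones (30.8% and 31.8%), so more of the list was lower than higher in both. RMND5B, of a ubiquitin ligase complex, had the deepest drop of the group, at 7.35 and 6.55 CPM, then 20.6 and 22.1, then 38.6 and 35.2 CPM. TSG101 of the ESCRT-I complex, the ubiquitin-conjugating enzyme UBE2G2, the SUMO protease SENP1, UBL4A and the chaperone DNAJB14 were the others.

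Kinases and signalling proteins, 11 in all, included both a beta and a gamma subunit of AMP-activated protein kinase, the cell's energy sensor. PRKAB1 was at 6.0 and 6.35 CPM, then 11.8 and 12.7, then 27.2 and 23.9 CPM (-1.12 ± 0.23 and 0.89 ± 0.18). PRKAG1 was at 22.6 and 25.6 CPM, then 52.5 and 48.5, then 73.1 and 81.3 CPM (-1.21 ± 0.13 and 0.46 ± 0.11). Each promoter held an ETS motif. MAP3K7, the kinase TAK1 of TGF-beta and cytokine signalling, was at 35.5 and 27.4 CPM, then 63.3 and 65.0, then 122 and 111 CPM. TBC1D7, the third subunit of the TSC complex that restrains mTORC1, was at 6.6 and 6.14 CPM, then 11.8 and 13.7, then 24.5 and 25.2 CPM. On the PI3K and mTOR list, 19 of 41 genes were lower and 16 higher in the vector-labelled libraries, and 14 were lower and 18 higher in the ELK3-labelled ones. The shares over all genes tested were 35.3% and 37%, and 30.8% and 31.8%, in the same order. The Wnt receptor FZD7, the axon guidance receptor ROBO3, MOB2 and PLEKHG2 were also members. With the motif in 4 of 10 matched, this group stood below DNA repair and RNA processing, but each group holds few genes.

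Transcription and chromatin held 11 members, with the motif in 4 of 7 matched. LMO4, a LIM-domain cofactor, was at 38.4 and 34.0 CPM, then 70.2 and 68.0, then 117 and 103 CPM. ZFP41 was at 3.60 and 3.69 CPM, then 11 and 7.36, then 22.3 and 20.5 CPM. ZNF239, ZNF485 and ZNF623 were the members with a ZNF symbol.

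KRT18, a keratin of simple epithelia, was at 73.3 and 68.6 CPM, then 133 and 142, then 258 and 249 CPM (-1.09 ± 0.10 and 0.72 ± 0.09). It is also on the list of 17 luminal breast markers, whose sum was 555 and 557 CPM in the vector-labelled, 425 and 410.0 CPM in control and 834 and 765 CPM in the ELK3-labelled libraries. TFF1 was at 0 in the vector-labelled libraries and SPDEF and AGR2 in control, and the part of other cells in the KRT18 value was not tested. PKP2, a plakophilin of desmosomes, was at 6.45 and 6.76 CPM, then 8.45 and 11.9, then 15.8 and 15.1 CPM. Of the epithelial junction and keratin list, 20 of 40 genes were lower and 16 higher in the vector-labelled libraries (35.3% and 37% of all genes tested), and 18 were lower and 17 higher in the ELK3-labelled ones (30.8% and 31.8%). The antiviral factor SAMD9 and the innate immune cofactor ZCCHC3 were members as well.

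Membrane and metabolic genes filled most of the remainder. SLC29A2, a nucleoside transporter, was at 15.7 and 15.6 CPM, then 24.6 and 25.9, then 49.8 and 48.0 CPM. AGPAT2, an acyltransferase of phospholipid and triglyceride synthesis, was at 31.3 and 32.6 CPM, then 61.7 and 44.0, then 89.8 and 85.5 CPM. NMNAT1, which makes nuclear NAD, was at 6.75 and 3.69 CPM, then 10.6 and 8.15, then 18.8 and 16.0 CPM. Control replicates of AGPAT2 and vector-labelled replicates of NMNAT1 were far apart beside the steps. Without vector-labelled replicate 2 the NMNAT1 drop was -0.61, and without control replicate 1 it was -0.73, and without control replicate 2 its rise was 0.55, none of them called.

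The members made up 0.976% of genes at the floor, so short lists can hold none by their size. The 7 ternary complex factors and SRF genes, 34 immediate early genes and 14 genes reported as repressed by ELK3 gave 0 members each, with 6, 27 and 8 at the floor, and nothing is read from these zeros. Of the genes reported as repressed by ELK3, 11 were tested. In the vector-labelled libraries 5 were called higher and 4 lower, beside 37% and 35.3% of all genes tested. Their median log2 fold change was 0.08. In the ELK3-labelled libraries 7 were higher and 2 lower, beside 31.8% and 30.8% of all genes, with a median of 1.42. Between the plasmid groups 7 were higher and 2 lower in the ELK3-labelled libraries, with a smaller median of 0.32. Of all genes tested, 30% were higher in that comparison. For the 8 genes at the floor the median log2 CPM differences from control were 0.005 and 0.81. The NKG2D ligand list gave 0 of 4 at the floor, and the lists of fusion and of mitophagy genes gave 0 of 22 and 0 of 38. Of 58 gene lists, 46 held no member.

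Members were spread over most chromosomes, with the highest share of floor genes on chromosome 5. Per 100 floor genes they numbered 2.49 on chromosome 5, 2.04 on 21 and 1.85 on 18. Chromosomes 21 and 18 held only 2 and 3 members, and chromosomes 13 and 14 held 0. Positions were found for 109 members in GENCODE 29 (GRCh38), and 13 of them were on chromosome 5 (11.9%), against 4.64% of floor genes and 0 of the 52 positioned genes graded in the opposite order. The 13 were EXOC3-AS1, TRIP13, GTF2H2B, GTF2H2, AGGF1, ANKRD32, NUDT12, EFNA5, SLC25A46, PGGT1B, RAD50, MFAP3 and RMND5B. The 509 other floor genes on chromosome 5 had medians of -0.14 in the vector-labelled and 0.18 in the ELK3-labelled libraries on the log2 scale, against -0.08 and 0.03 over all floor genes. Without the chromosome 5 members, 45 of 75 matched members (60.0%) held the ETS motif.

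**Figure D5:**
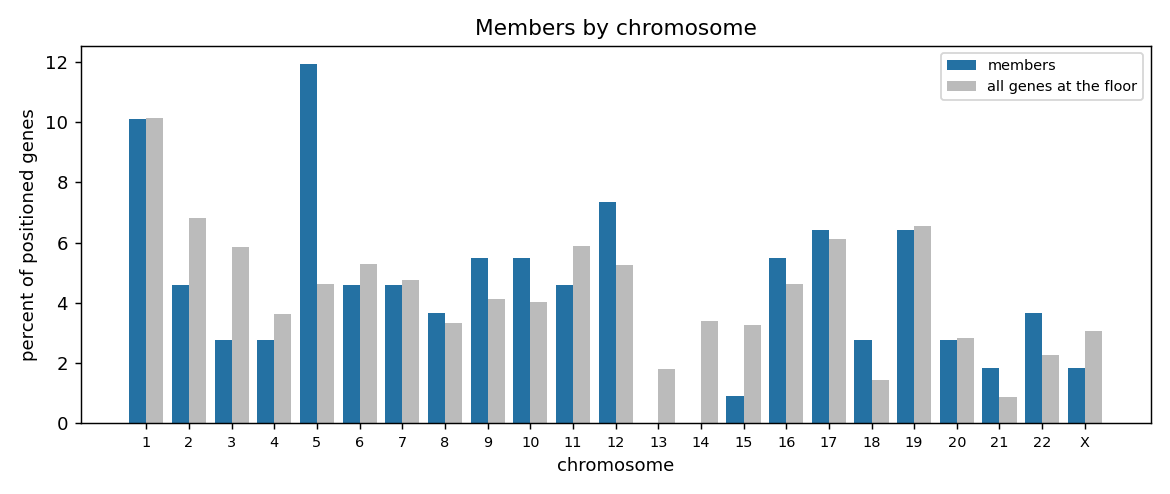
Percent of the 109 positioned members (blue) and of all positioned genes at the floor (grey) on each chromosome. Chromosome 5 holds 11.9% of members and 4.64% of floor genes.

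Some members were neighbours. SASS6, a centriole assembly protein, and TRMT13 face away from each other on chromosome 1, with 0.195 kb between their annotated ends. LZIC and NMNAT1 are a second divergent pair there, 0.021 kb apart. SASS6 was at 36 and 30.9 CPM, then 53.9 and 59.3, then 99.7 and 111 CPM, and TRMT13 at 11.2 and 6.35 CPM, then 16.5 and 18.1, then 30.7 and 32.1 CPM. ZNF239 and ZNF485 lie 31.8 kb apart on chromosome 10. The median annotated length was 18.3 kb in members, against 32.3 kb for floor genes and 18.1 kb for genes graded in the opposite order.

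Reads of near-identical or overlapping genes may be split or shared. GTF2H2, GTF2H2B and GTF2H2C_2 are copies of a gene, and AGAP9 and BMS1P6 have close relatives nearby. The read-through transcript CHKB-CPT1B shares exons with CPT1B, which missed the drop at 1.495-fold. IL10RB-AS1 is annotated as an antisense RNA and named after IL10RB, which missed the rise at 1.499-fold. Whether this pair overlaps was not checked. The nearest members inside the drop threshold were PCTP, CHKB-CPT1B and ZNF485 at 1.507-fold, 1.508-fold and 1.511-fold, and AGAP7P was next outside at 1.498-fold. Inside the rise threshold were AGAP9, ACTR6 and C19orf54 at 1.501-fold, 1.504-fold and 1.505-fold, with MRS2P2 outside at 1.497-fold. At the floor stood TOB2P1, ACSF3 and ZNF485 with 5.14, 5.24 and 5.44 CPM, and FAM196A, PICK1 and MMP15 fell short with 4.84, 4.64 and 4.45 CPM.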

How the data were processed

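The 6 libraries, made with the Lexogen QuantSeq kit, which reads transcript ends, were analysed from the raw read counts per gene symbol that the authors deposited. Bowtie2, edgeR and hg19 are named without versions, per the submitters' processing notes. The counting tool and annotation are not given in the sources used here. Lines sharing a symbol (1561 of 25737) were summed. Members and lists were chosen with earlier results of these data known, and role groups and promoter motifs after the members were seen. Named members were those with the largest smaller step, the highest control level, the largest difference between plasmid groups, the steps most like ELK3's turned round, list members, genes nearest a threshold and neighbours. Counts were fitted with edgeR 4.0.16 in R 4.3.3 (TMM, filterByExpr, robust quasi-likelihood, 1 model over 6 libraries, 3 residual degrees of freedom), with Benjamini-Hochberg adjustment over 15386 genes, two-sided. DESeq2 1.42.0 and other settings were alternatives. The fit was tested on simulated data in which few genes changed, in a single group. In the real data most genes tested were called between the vector-labelled libraries and control, so the simulation does not vouch for these calls. Chi-square per degree of freedom between replicates was 2.21 to 3.02, above sampling noise. Coordinates are GRCh38, from the reference tables and not from the hg19 alignment.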

Additional observations from a re-analysis of the deposited data

How the results depend on the processing

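The size of the set depended on its thresholds: 7 genes passed steps of 2-fold, 490 passed a looser log2 step of 0.32, 65 had at least 20 CPM in control and 40 had both libraries of each group past the step. Leaving out 1 library in turn gave 109 to 131 genes, with 81 to 103 of the 112 among them. With the members kept, leaving out 1 library gave 107 to 112 called lower in the vector-labelled, 87 to 102 called higher in the ELK3-labelled, and 112 to 112 called between the plasmid groups. In these fits 14 members lost the drop and 29 the rise in at least 1. DESeq2 called 107, 76 and 112. The sample titles give only a replicate number, and whether libraries of the same number were handled together is not stated. Deviations of same-numbered libraries correlated between groups at -0.15, -0.01 and 0.06, which does not settle it. With a replicate block 111, 99 and 112 members were called. The excess of the ETS motif over floor genes, 39.0 percentage points, was 41.9 against all genes tested and, with alternatives chosen after seeing the data, 43.1 in genes with 1 listed window, 34.6 for members by TMM-scaled CPM and 6.86 for the longer motif ACCGGAAGT (9.41% against 2.55%), which is rarer by construction. With 2 libraries a group and 3 counts worth up to 0.614 CPM, members near the 5 CPM floor are the least precise.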

Other observations

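Below the 5 CPM floor, 131 of 12992 genes passed both steps (1.01%), beside 0.976% of genes at the floor. Of these 131, 44 had at least 1 CPM in control. LINC01547, a long intergenic RNA, was at 0.150 and 0.205 CPM in the vector-labelled libraries, 1.18 and 1.19 CPM in control and 5.70 and 3.50 CPM in the ELK3-labelled libraries. ANKRD34A was at 0.600 and 0.614 CPM, then 1.38 and 2.39, then 5.2 and 4.82 CPM. ANKEF1 was at 0.750 and 0.614 CPM, then 1.38 and 3.38, then 6.71 and 5.69 CPM. The vector-labelled values of LINC01547 are 1 count in each library, below the limit of 3 counts. Those of ANKRD34A (4 and 3 counts) and ANKEF1 (5 and 3 counts) are at or near that limit, so no fold is given. These 3 genes were chosen after their values were seen.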
